A study of Homo sapiens with 8 samples.

Results

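The genes described here are the protein-coding ZNF genes of human chromosome 19, taken from the GENCODE release 44 annotation on GRCh37 (hg19) as every symbol made of ZNF and a number, with or without a letter after it. This rule gave 246 of the 1480 protein-coding genes of the chromosome and 246 of the 508 genes that it finds in the whole genome, called members. Chromatin accessibility had been profiled by ATAC-seq, in which the transposase Tn5 inserts sequencing adapters into accessible DNA, in HUDEP-2 cells, an immortalised erythroid progenitor line derived from human umbilical cord blood. All 4 libraries used here came from cells with the scrambled control guide RNA (sgControl), kept for 5 h without growth factors and then treated for 1 h with stem cell factor (SCF, 50 ng/ml; 2 libraries) or with phosphate-buffered saline (PBS; 2 libraries), with about 50000 cells per library. The 4 samples with a guide against EGR1 were not analysed here. In the study that guide was used for CRISPR interference with dCas9-KRAB, a fusion that carries a KRAB domain, and sgControl cells were its control. The sample labels do not state whether the sgControl cells carry the same fusion. A gene was called open in a library when at least 1 peak of that library's list had its summit within 1 kb of any annotated start site of the gene. Each peak was ranked by fold enrichment, the deposited ratio of fragments at the summit to the local background, within its own list, with 100 as the highest percentile.

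C2H2 zinc-finger proteins read DNA with tandem fingers, and in most of those encoded on this chromosome the fingers follow a KRAB domain. KRAB recruits TRIM28, which brings the histone H3 lysine 9 methyltransferase SETDB1 and HP1 proteins to the bound site, and many of these sites lie in transposable elements. The family grew by tandem duplication, so its genes stand in clusters along the chromosome, and the gene bodies themselves are a well-known site of H3 lysine 9 trimethylation. ZNF91 and ZNF93, for example, are known repressors of SVA and LINE-1 retrotransposons.

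Promoter sequence is shown for the genes on which the results turn. Each stretch is the reference sequence (GRCh37) of 201 bases around the summit in the library where the gene ranked highest, written 5′ to 3′ on the strand of the gene, and capitals mark any of the 10 transcription factor words searched for, on either strand. ZNF333 (chr19:14800638-14800838, plus strand) had the highest rank of all members and holds 1 SP and KLF word:
ZNF333: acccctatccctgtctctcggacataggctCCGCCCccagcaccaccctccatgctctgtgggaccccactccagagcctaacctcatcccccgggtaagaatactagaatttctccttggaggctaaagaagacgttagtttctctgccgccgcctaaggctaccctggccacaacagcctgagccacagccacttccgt
ZNF780B (chr19:40561921-40562121, minus strand) was the member with a rank gain after SCF, ZNF578 (chr19:52956852-52957052, plus strand) had the larger of the 2 rank losses, and ZNF563 (chr19:12444516-12444716, minus strand) was open with PBS and not with SCF. The windows of ZNF780B and ZNF578 hold none of the words and that of ZNF563 holds 2 SP and KLF words:
ZNF780B: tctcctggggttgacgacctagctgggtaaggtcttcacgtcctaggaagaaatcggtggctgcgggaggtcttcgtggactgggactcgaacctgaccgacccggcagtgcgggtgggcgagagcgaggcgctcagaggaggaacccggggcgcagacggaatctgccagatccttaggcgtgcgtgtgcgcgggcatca
ZNF578: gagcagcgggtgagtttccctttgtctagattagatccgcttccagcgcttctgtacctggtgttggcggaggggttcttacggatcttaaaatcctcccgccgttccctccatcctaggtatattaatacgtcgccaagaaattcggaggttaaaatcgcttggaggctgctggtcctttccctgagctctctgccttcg
ZNF563: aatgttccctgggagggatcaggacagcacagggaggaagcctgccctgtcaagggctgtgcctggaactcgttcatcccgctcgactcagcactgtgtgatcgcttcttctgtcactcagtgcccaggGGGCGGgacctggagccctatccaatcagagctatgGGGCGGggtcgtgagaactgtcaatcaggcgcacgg
ZNF675 (chr19:23869731-23869931, minus strand) ranked highest in the cluster with the lowest share of open genes, and its window holds none of the words:
ZNF675: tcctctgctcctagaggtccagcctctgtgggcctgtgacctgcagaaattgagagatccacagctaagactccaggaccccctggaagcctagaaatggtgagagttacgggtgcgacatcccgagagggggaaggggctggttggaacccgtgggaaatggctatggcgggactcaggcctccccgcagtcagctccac
ZNF549 (chr19:58038638-58038838, plus strand), ZNF582 (chr19:56904753-56904953, minus strand) and ZNF547 (chr19:57874681-57874881, plus strand) show the ETS word, the word that set the member peaks apart from other promoter peaks of the chromosome by the widest margin. They were chosen after their values were seen, as the 3 highest-ranked genes with that word at the summit in all 4 libraries. In ZNF582 the ETS word overlaps a YY1 word, and ZNF547 also holds a cAMP response element:
ZNF549: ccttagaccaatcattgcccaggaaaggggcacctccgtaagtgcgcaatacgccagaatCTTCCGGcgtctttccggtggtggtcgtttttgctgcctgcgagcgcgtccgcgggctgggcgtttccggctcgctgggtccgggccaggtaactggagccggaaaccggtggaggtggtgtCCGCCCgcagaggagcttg
ZNF582: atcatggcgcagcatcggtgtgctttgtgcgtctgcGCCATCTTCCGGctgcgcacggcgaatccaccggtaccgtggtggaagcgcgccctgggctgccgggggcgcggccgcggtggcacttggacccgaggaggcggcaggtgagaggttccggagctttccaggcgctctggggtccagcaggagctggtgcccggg
ZNF547: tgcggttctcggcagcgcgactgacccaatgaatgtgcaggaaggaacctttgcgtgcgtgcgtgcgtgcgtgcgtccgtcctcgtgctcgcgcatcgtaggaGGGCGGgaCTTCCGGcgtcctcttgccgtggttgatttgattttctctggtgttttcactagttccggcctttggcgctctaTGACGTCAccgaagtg

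The 4 lists held 29269 to 33616 peaks. Depth, recovered from the peak statistics, relative to the first PBS replicate was 1.42 in the second PBS replicate and 0.883 and 0.843 in SCF replicates 1 and 2. Total read numbers are unknown. Of 10 erythroid marker genes, 9 were open in all 4 libraries, among them GATA1, KLF1 and HBB, and ALAS2 was open in PBS replicate 2 alone. All 4 T cell markers and both liver markers were without a promoter peak in every library. Of the myeloid and neuron markers, CSF1R, CD14, CEBPE and SNAP25 were open in all 4 libraries.

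Most ZNF genes of chromosome 19 had an open promoter. The number open was 203 and 210 in PBS replicates 1 and 2 and 204 and 206 in SCF replicates 1 and 2. These counts overlapped between treatments, and the highest came from the deepest library. Promoters of 201 members (81.7%) were open in all 4 libraries, against 59.7% of all 20163 protein-coding genes, 62% of the 1234 other protein-coding genes of the chromosome and 80.2% of the 262 ZNF genes of other chromosomes. No library had a peak at 33 members (13.4%), against 32.9% of all protein-coding genes, and 12 members were open in 1 to 3 libraries. Within each library the share of open members exceeded that of the other chromosome 19 genes by 17.3 to 18.8 percentage points (mean 18.1 ± 0.699, SD, n = 4 libraries). This direction held in 4 of 4 libraries, where an exact two-sided sign-flip permutation test gives p = 0.125, the smallest that 4 libraries allow. Against the ZNF genes of other chromosomes the difference was 2.25 ± 1.09 points (SD, n = 4; exact sign-flip permutation p = 0.125), and it turned to −1.22 points when the gene's own 5′ end was the only start site considered.

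By fold enrichment the member peaks stood high in their lists. Their median rank was 87.3 and 86.3 with PBS and 84.5 and 86.2 with SCF, which was 22.3 ± 0.457 percentile points above the peaks at other chromosome 19 start sites (SD, n = 4; higher in 4 of 4 libraries, exact sign-flip permutation p = 0.125). With the 5′ end as the only start site the difference was 11.2 points. On the best peak of each gene open in all 4 libraries it was 6.68 points (median ranks of 88.0 and 81.3, means over 4 libraries). Taking the best peak of each gene open in all 4 libraries, 43.8% of members had a mean rank of at least 90, compared with 32.3% of the other chromosome 19 genes and 22.7% of all protein-coding genes. A mean rank under 50 was found for 12 members (5.97%) and for 17.6% of the other chromosome 19 genes.

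The rank of the members depended on the local background. At the members open in all 4 libraries a median of 67, 95, 61 and 62 fragments covered the summit (in the order PBS replicates 1 and 2, SCF replicates 1 and 2). At the other chromosome 19 genes open in all 4 libraries the corresponding medians were 130, 172, 120 and 107 fragments. The median local background at members was 4.20, 6.04, 3.73 and 3.72 fragments, below the 9.36, 13.3, 9.02 and 8.23 fragments at the other genes in each library. Compared with these genes, members thus had fewer fragments at the summit and, in proportion to the fragments, a lower background. Their summit counts were not low against the genome. Over all protein-coding genes open in all 4 libraries the medians were 66, 89, 62 and 58 fragments. At ZNF genes of other chromosomes they were 54, 77.5, 51.5 and 50 fragments. When peaks were ranked by the recovered number of fragments, an alternative chosen after seeing the data, the difference in median rank between member peaks and the other chromosome 19 peaks was −6.80 points. When ranked by −log10 p, it was 0.533 points, with −1.79 in PBS replicate 1 and values above 0 in the other 3 libraries (exact sign-flip permutation p = 0.625). On the best peak of each gene open in all 4 libraries the difference was −12.3 points by fragments and −8.96 points by −log10 p.

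**Figure D1:**
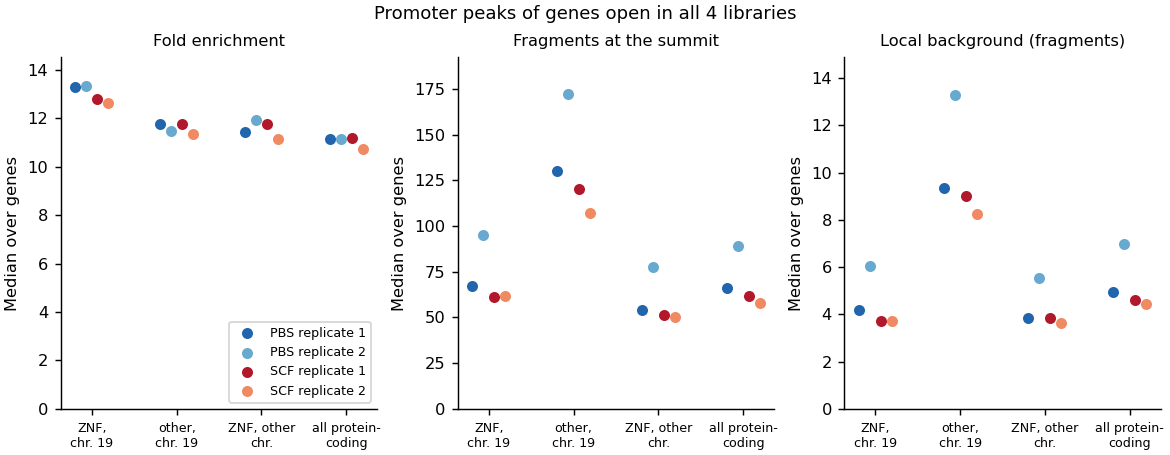
Median fold enrichment, median number of fragments at the summit and median local background (fragments) of the highest-ranked promoter peak of genes open in all 4 libraries, for the ZNF genes of chromosome 19, the other protein-coding genes of that chromosome, the ZNF genes of other chromosomes and all protein-coding genes; each point is 1 library. The ZNF genes of chromosome 19 had the highest medians of fold enrichment (12.6 to 13.3). Their summits held 61 to 95 fragments, against 107 to 172 at the other genes of the chromosome and 58 to 89 over all protein-coding genes.

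Joining members whose 5′ ends lay at most 500 kb apart gave 10 clusters of at least 5 genes, numbered from the start of the chromosome, with 14 members left outside them. The share of open genes differed widely between clusters. It was lowest in cluster 4 (37 genes from ZNF101 to ZNF254, chr19:19779605-24216207), where 16 and 19 genes were open with PBS and 16 and 16 with SCF, a mean of 45.3% ± 4.05 (SD, n = 4). Cluster 3 (25 genes from ZNF653 to ZNF490, chr19:11616654-12750912) came next with 69.0% ± 3.83. The remaining clusters were open at 80% or more of their genes in every library.

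Cluster 1 (5 genes from ZNF554 to ZNF77, chr19:2819866-2944969) had 80% of its genes open in each library. Cluster 2 (13 genes from ZNF414 to ZNF846, chr19:8579051-9903856) had 84.6% open in each. On the long arm, cluster 5 (5 genes from ZNF302 to ZNF792, chr19:35168544-35455133) was open at 100% of its genes and cluster 6 (26 genes from ZNF146 to ZNF573, chr19:36705504-38307940) at 98.1% ± 2.22. Cluster 7 (23 genes from ZNF575 to ZNF180, chr19:44029649-45004576) was open at 92.4% ± 2.17 and cluster 8 (39 genes from ZNF175 to ZNF331, chr19:52074536-54022781) at 94.9% ± 2.96. Cluster 9 (16 genes from ZNF628 to ZNF835, chr19:55987984-57183151) and cluster 10 (43 genes from ZNF264 to ZNF446, chr19:57702868-58985384) were open at 93.8% and 93.0% of their genes in every library. The distance between the highest and the lowest cluster was 54.7 percentage points.

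**Figure D2:**
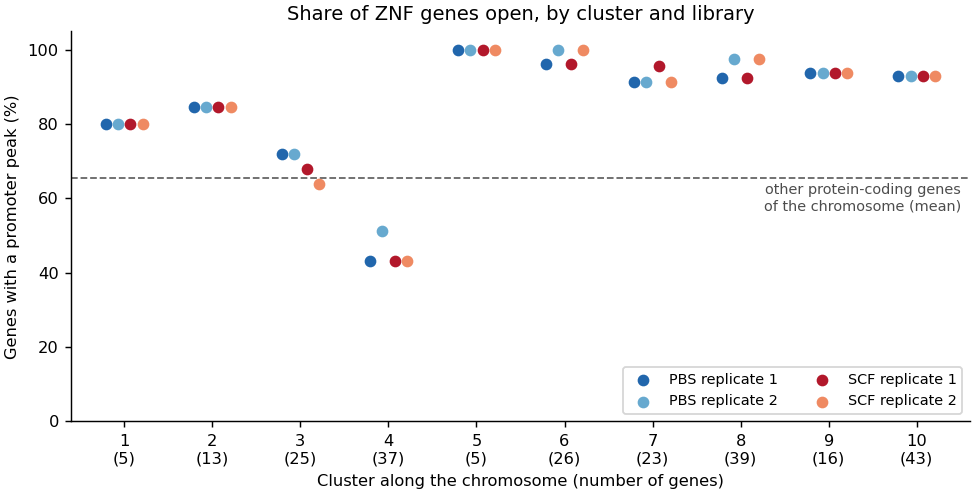
Percent of the ZNF genes of each cluster with a promoter peak (vertical axis) by cluster along chromosome 19 (horizontal axis, number of genes in brackets), with 1 point per library and the mean share of the other protein-coding genes of the chromosome as a broken line. Cluster 4 lies between 43.2% and 51.4% in the 4 libraries, below every other cluster.

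Closed genes in cluster 4 stood next to each other. Of its 37 genes, 16 were open in all 4 libraries, 18 in none and 3 in PBS replicate 2 alone. An unbroken run of 6 closed neighbours extended from ZNF93 to ZNF626 (ZNF93, ZNF682, ZNF90, ZNF486, ZNF737 and ZNF626; start sites over chr19:20011722-20844402, 0.833 Mb). A longer run of 11 closed neighbours extended from ZNF43 to ZNF730 (ZNF43, ZNF208, ZNF257, ZNF676, ZNF729, ZNF98, ZNF492, ZNF99, ZNF723, ZNF728 and ZNF730; chr19:22034927-23258012, 1.22 Mb). Between the outermost start sites of either run the lists held 0 peaks of any kind in each of the 4 libraries, whereas the whole chromosome held 34.4 to 36.9 peaks per Mb. Both intervals hold no start of a protein-coding gene other than members, and 6.005% of the first and 0% of the second are unsequenced bases of the assembly. Protein-coding promoter peaks were therefore absent from both by the choice of the runs, whereas the rate of the chromosome includes such peaks. Away from start sites, the gene bodies of all members held 2.30 ± 0.227 peaks per Mb (SD, n = 4). The remaining closed gene of the cluster was ZNF681.

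The genes flanking the runs were open in every library. ZNF100, which precedes the longer run, had a mean rank of 94.6, and ZNF724, which follows it, 94.0. Open genes of cluster 4 had a median mean rank of 85.3, against 87.9 over all members open in all 4 libraries. ZNF675, which led the cluster, had ranks of 99.3 and 97.9 with PBS and 98.2 and 96.3 with SCF. ZNF91, the SVA repressor, was open with ranks of 79.9 and 87.1 with PBS and 85.4 and 78.7 with SCF, whereas ZNF93, the LINE-1 repressor, lay in the closed run. The 3 genes open in PBS replicate 2 alone were weak there, with ZNF85 at a rank of 7.45, ZNF726 at 13.6 and ZNF738 at 38.0, each from 8 to 13 fragments at the summit. Peaks of any kind were also sparse over the cluster as a whole, at 5.97 ± 0.291 per Mb (SD, n = 4) against 17.2 to 45.4 per Mb in the other clusters.

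Sequence around the gene's 5′ end was mostly unique in closed and open genes alike. Of all members, 2 had under 80% of the 64-base words in the 2 kb around the 5′ end unique in the genome, and both were open in all 4 libraries. Uniqueness around the other start sites was not measured. The lowest value was 88.8% in cluster 4 and 90.1% among its closed genes. Open and closed genes of cluster 4 also had near equal base composition in the 2 kb around the 5′ end, with a median GC content of 48.8% in both and a median ratio of observed to expected CpG of 0.511 in the open and 0.540 in the closed genes. A median of 6.5 start sites was annotated for the open and 3 for the closed genes, so the open genes offered more positions at which a peak could be counted. Under the 5′ end alone, cluster 4 was open at 42.6% of its genes.

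**Figure D3:**
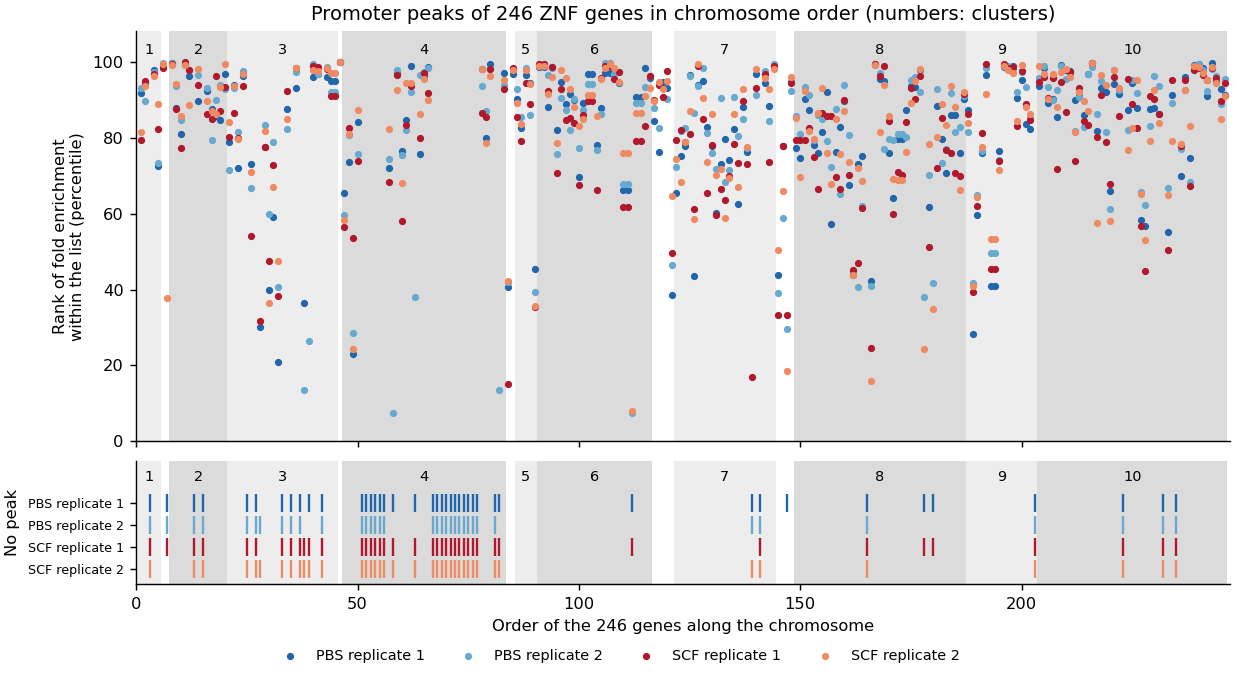
Rank of fold enrichment within the list (percentile, upper panel) of the highest-ranked promoter peak of each of the 246 ZNF genes in chromosome order, with 1 colour per library, and the genes without a peak in each library (ticks, lower panel); grey bands mark the 10 clusters. The ticks form 2 dense blocks in cluster 4, of 6 and 11 neighbouring genes, at the same places in all 4 libraries.

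Outside cluster 4, closed genes were scattered. Cluster 3 had 6 members without a peak in any library (ZNF491, ZNF439, ZNF844, ZNF625, ZNF44 and ZNF709), cluster 10 had 3 (ZNF154, ZNF418 and ZNF135) and cluster 2 had 2 (ZNF177 and ZNF560). Clusters 1, 7, 8 and 9 had 1 each (ZNF556, ZNF112, ZNF534 and ZNF835). The members open in 1 to 3 libraries ranked in the lower part of the lists where they were open, up to 41.8 for ZNF665 in PBS replicate 2. ZNF793, for example, was called in PBS replicate 2 at a rank of 7.5 with 8 fragments at the summit and in SCF replicate 2 at 7.9 with 6 fragments.

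The highest mean ranks of all members belonged to ZNF333 (99.95), ZNF414 (99.5), ZNF699 (99.4), ZNF549 (99.3) and ZNF808 (99.2). In the deepest library, the summit of ZNF333 held 503 fragments, that of ZNF414 383 and that of ZNF549 104. ZNF549 thus reached its rank with fewer fragments and a lower background (2.77 to 4.95 fragments) than ZNF333 (11.6 to 20.7). The leading gene was ZNF57 in cluster 1, ZNF414 in cluster 2, ZNF799 in cluster 3, ZNF599 in cluster 5, ZNF180 in cluster 7, ZNF808 in cluster 8, ZNF444 in cluster 9 and ZNF549 in cluster 10. In cluster 6 ZNF565 and ZNF146, which start on opposite strands, had the same leading peak, with a mean rank of 99.1. At the other end, the lowest mean ranks among members open in all 4 libraries were 30.8 for ZNF578, 32.3 for ZNF506, 35.0 for ZNF536, 36.9 for ZNF878 and 37.5 for ZNF579. The ranks of these weak peaks varied between replicates, from 15.2 to 42.2 over the 4 libraries for ZNF536 (15.2 and 42.2 in the 2 SCF libraries).

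Member peaks were by definition within 1 kb of a start site, and most of their summits lay closer than that rule required. Distances for other genes are not given here. The median distance between the summit and the nearest start site was 52.5 to 64 bp in the 4 libraries, and 90.5% to 94.6% of open members had their highest-ranked peak within 200 bp. The median width was 837 and 882 bp with PBS and 846 and 828 bp with SCF, which exceeded the peaks at other chromosome 19 start sites by 53.75 ± 18.97 bp (SD, n = 4; wider in 4 of 4 libraries, exact sign-flip permutation p = 0.125). With the 5′ end as the only start site the difference was −13.5 bp. At ZNF genes of other chromosomes the median width was 841 and 901 bp with PBS and 813 and 813 bp with SCF. Over all protein-coding start sites it was 837 and 879 bp with PBS and 812 and 804 bp with SCF. Member widths were thus near those of both sets. The widest were at ZNF850, with a mean of 1840.5 bp, ZNF575 (1745 bp), ZNF787 (1615 bp), ZNF524 (1497 bp) and ZNF345 (1390.25 bp). In each library 13 peaks served 2 or more members and 34 or 35 also lay at the start of a gene that is no member, so neighbouring genes were not always independent measurements. Another gene started on the opposite strand within 1 kb of any start site of 76 of the 246 members and of 393 of the 1234 other chromosome 19 genes. This was so for 70 of the 201 members open in all 4 libraries and for 4 of the 33 open in none. A median of 5 start sites was annotated for the former and 3 for the latter, so more positions were searched in the open members.

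Away from the start sites the gene bodies of members held few peaks. Counting peaks inside genes with a summit more than 1 kb from every protein-coding start site, the 7.51 Mb of member genes held 15 to 19 peaks per library, a rate of 2.30 ± 0.227 per Mb (SD, n = 4), against 21.1 ± 0.862 per Mb over the 26.99 Mb of the other chromosome 19 genes (lower in 4 of 4 libraries, exact sign-flip permutation p = 0.125). The longest coding exon of each member, which in this family usually encodes the finger array, held 0 and 1 such peaks with PBS and 0 and 0 with SCF, over 0.380 Mb in all. In the proteins translated from the annotation, the C2H2 pattern was found a median of 13 times both in members open in all 4 libraries and in members open in none.

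The base composition of the promoter went with openness less strongly in members than in other genes. Of 106 members with a ratio of observed to expected CpG of at least 0.6, 91.5% were open in all 4 libraries, and of 140 below it, 74.3%. The corresponding shares of the other chromosome 19 genes were 87.2% and 44.3%. These shares are given as a description.

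The words at the summit of member peaks differed from those at other promoter peaks. The ETS word CCGGAAG, the core bound by ETS family factors such as GABPA, was found within 100 bases of the summit, on either strand, in 27.5% ± 0.630 of member peaks (SD, n = 4), against 9.25% of the other chromosome 19 promoter peaks, 20.1% at ZNF genes of other chromosomes and 10.3% of all promoter peaks that were no member's. The GC box GGGCGG of SP and KLF factors was less frequent in member peaks, at 42.3% ± 1.45 against 60.002% at other chromosome 19 genes. It stood at 50.2% at ZNF genes of other chromosomes and 55.9% over all. Both directions were seen in 4 of 4 libraries. The median GC content of the windows was lower in member peaks as well, at 61.7% against 66.2% in PBS replicate 1, and its part in these shares was not tested. A word is only a string of letters and no evidence of binding.

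The remaining words were rarer. The YY1 word AAGATGGC was found in 5.44% of member peaks and 2.89% of other chromosome 19 promoter peaks (2.67% over all), and the NRF1 word GCATGCGC in 3.85% and 3.13% (2.91%). The EGR word GCGTGGG, bound by the immediate early factor EGR1 and its relatives, was found in 8.61% and 6.83% (6.82%). AP-1 (TGANTCA, N being any base) stood at 3.18% and 2.64% (3.09%), and the cAMP response element (TGACGTCA) at 2.72% and 1.76% (1.63%). The GATA words of erythroid regulation were less frequent in member peaks, AGATAA at 1.59% against 3.97% (4.57%) and TGATAA at 1.13% against 2.45% (2.77%). So was the TATA word TATAAA at 1.13% against 2.29% (2.61%). At ZNF genes of other chromosomes YY1 stood at 0.840%, NRF1 at 3.05%, EGR at 6.20% and AP-1 at 2.41%. The cAMP response element stood there at 2.84%, AGATAA at 3.04%, TGATAA at 1.47% and TATAAA at 1.57%.

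Clusters differed in their words. Among open genes, the ETS word was at the summit of 46.6% in cluster 8, 42.5% in cluster 10, 41.8% in cluster 4, 40% in cluster 5 and 33.3% in cluster 9 (means over 4 libraries). It was found at 19.7% in cluster 6, 13.01% in cluster 3, 9.42% in cluster 7, 9.09% in cluster 2 and 0% in cluster 1. The share ran from 25% to 50% between libraries in cluster 4, 20% to 60% in cluster 5 and 40% to 45% in cluster 10. Of the genes open in all 4 libraries, the word was at the summit in each library in 2 of 16 in cluster 4 and 1 of 5 in cluster 5. The same was so for 6 of 36 in cluster 8, 4 of 15 in cluster 9 and 11 of 40 in cluster 10. Cluster 1 had 4 such open genes. The SP and KLF word was rarest in clusters 4 (16.7%) and 6 (21.7%). The 29 genes with the ETS word in all 4 libraries had a median mean rank of 90.2 (quartiles 84.6 and 95.5) and the 117 with it in none 88.6 (77.7 and 95.3), so their ranks overlapped widely. Within 250 bases of the 5′ end the word was found in 48.3% of the 201 members open in all 4 libraries and 45.5% of the 33 open in none, so it did not separate open from closed members.

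**Figure D4:**
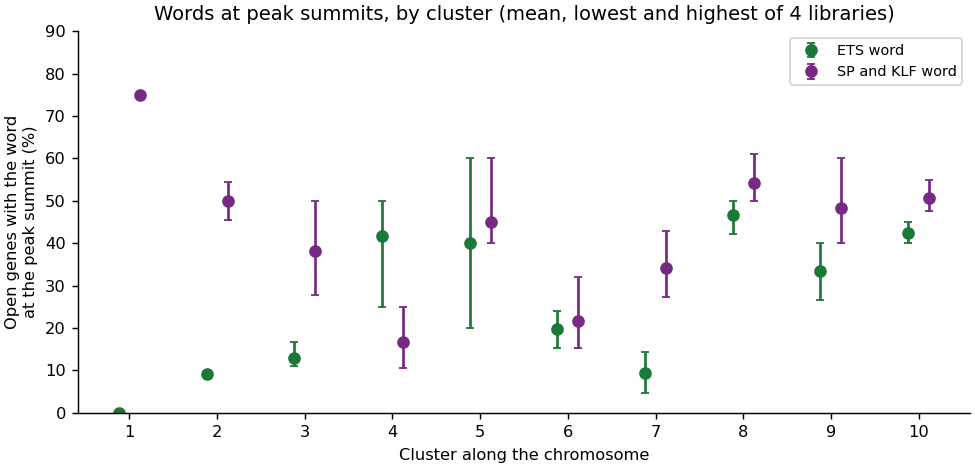
Percent of open ZNF genes with the ETS word or the SP and KLF word within 100 bases of the summit of their highest-ranked peak, by cluster along chromosome 19; points are means over the 4 libraries and bars run from the lowest to the highest library. The ETS word reaches 46.6% in cluster 8 and is at 0% in cluster 1, where the SP and KLF word is at 75%.

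The comparison of SCF with PBS asks whether an acute Kit signal changes these promoters. The share of open members was 83.9% ± 2.01 with PBS and 83.3% ± 0.575 with SCF (SD, n = 2 each), a difference of −0.610 points that was within the spread of the PBS libraries (exact two-sided permutation p = 1). Median width was 859.5 ± 31.8 bp with PBS and 837 ± 12.7 bp with SCF (exact permutation p = 0.667). Median rank was 86.8 ± 0.698 with PBS and 85.3 ± 1.25 with SCF, a difference of −1.47 points (exact permutation p = 0.333, the smallest that 2 against 2 libraries allow). The libraries did not overlap, but the nearest were PBS replicate 2 at 86.31 and SCF replicate 2 at 86.23. They overlapped with the 5′ end as the only start site and when ranked by −log10 p or by fragments (exact permutation p = 0.667 each). Peaks at all protein-coding start sites moved in the same direction by −1.12 points. Since no result of 2 against 2 libraries can pass a threshold of 0.05, these tests cannot show a change. Without PBS replicate 2, the deepest library, the share was 0.813 points higher with SCF and the difference in width was 0 bp. Without PBS replicate 1 the difference in width was −45 bp. The difference in rank was −0.58 points without SCF replicate 1, −0.97 without PBS replicate 1 and −2.35 without SCF replicate 2.

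The excess of members over other chromosome 19 genes was 18.7 ± 0.236 points with PBS and 17.5 ± 0.346 with SCF, a difference of −1.14 points (exact permutation p = 0.333). By cluster, the mean share of open genes was the same in both treatments in clusters 1, 2, 5, 6, 8, 9 and 10. Cluster 3 stood at 72% with PBS in either replicate and at 68% and 64% with SCF, a difference of −6 points (exact permutation p = 0.333, adjusted p = 1 over 10 clusters). It was −4 points with equal numbers of peaks per list (exact permutation p = 0.667) and 0 points at a −log10 q of at least 5 (exact permutation p = 1). In cluster 4 it was −4.05 points and in cluster 7 2.17 points, with overlapping libraries in both, and each was 0 points without 1 library (PBS replicate 2 for cluster 4, SCF replicate 1 for cluster 7).

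For the single genes, a rank gain was called when a gene was open in all 4 libraries and its lower SCF rank was at least 10 points above its higher PBS rank, and a rank loss in the reverse case. Among the 201 members open in all 4 libraries there was 1 gain, against 0.906% of all protein-coding genes, and there were 2 losses, against 1.89%. No member (0) was open only with SCF, meaning a peak in each SCF replicate and none with PBS (background 0.298%), and 1 was open only with PBS (background 0.456%). All 4 counts were near or below the background and are no result about the members as a group. Both SCF ranks lay above both PBS ranks in 25 members (12.4%, background 14.3%) and below them in 43 (21.4%, background 21.1%). The median difference in rank was −0.74 points over members (quartiles −3.52 and 1.68) and −0.73 over all genes. Leaving out PBS replicate 1 gave 3 gains (1.49% of members, against 2.67% of all genes) and 10 losses (4.95% against 7.49%), and leaving out PBS replicate 2 gave 6 gains (2.99% against 5.23%) and 3 losses (1.49% against 4.82%). Without SCF replicate 1 there were 3 gains (1.49% against 4.63%) and 8 losses (3.98% against 6.29%), and without SCF replicate 2 there were 3 gains (1.49% against 2.92%) and 19 losses (9.45% against 9.32%). Fewer libraries then had to differ. The members open only with PBS numbered 5 without PBS replicate 1 (2.03% against 1.47%).

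ZNF780B, a gene outside the clusters, rose from ranks of 76.3 and 82.6 with PBS to 93.8 and 94.7 with SCF. Its summit held 29 and 42 fragments with PBS and 38 and 45 with SCF, raw counts that interleave between treatments. These counts were not adjusted for depth. The 42 fragments came from the deepest library, with a relative depth of 1.42, against 0.883 and 0.843 in the SCF libraries. The part of depth in this overlap was not tested. Ranked by −log10 p or by fragments, no member had a gain (all genes 0.391% and 0.224%).

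ZNF578 in cluster 8 had ranks of 42.1 and 40.8 with PBS and 24.5 and 15.9 with SCF, from 12 and 15 fragments with PBS and 9 and 7 with SCF. Its mean rank was the lowest among members open in all 4 libraries. ZNF554 in cluster 1 had ranks of 91.6 and 93.1 with PBS and 79.4 and 81.4 with SCF. Its summit held 79 and 116 fragments with PBS and 59 and 58 with SCF, and the groups did not overlap on either scale. Depth moved in the same direction, since both SCF libraries were shallower than both PBS libraries, and its part in these values was not tested.

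ZNF563 in cluster 3, the gene open only with PBS, had ranks of 36.4 and 13.6 there, from 11 and 9 fragments. Peaks of this height lay close to the limit of detection, as the weakest member peak of a library held 6 to 8 fragments. When each list was limited to the same number of peaks, no member was open only with PBS (all genes 0.397%).

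**Figure D5:**
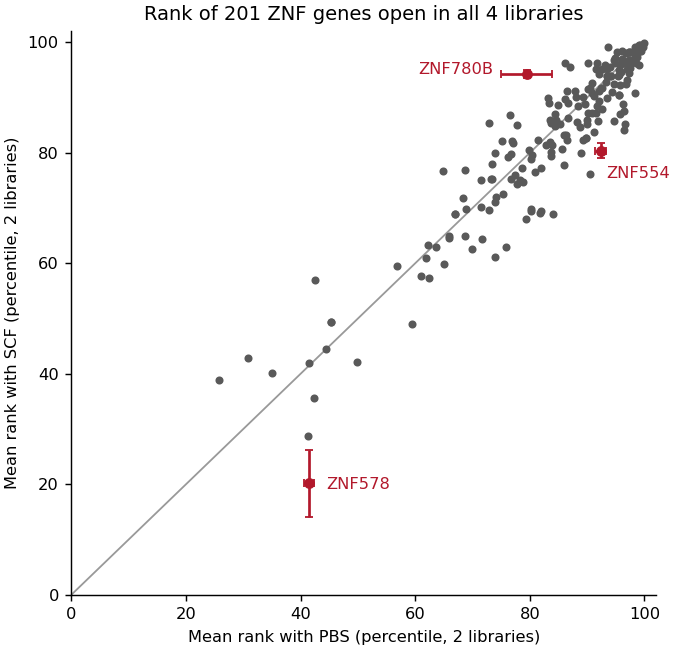
Mean rank of fold enrichment (percentile, 2 libraries each) with PBS (horizontal axis) and with SCF (vertical axis) of the 201 ZNF genes of chromosome 19 open in all 4 libraries; the line marks equal ranks, and the gene with a rank gain and the 2 with a rank loss are named, with bars of 1 SD. ZNF780B lies above the line at a difference of 14.8 points, and ZNF578 and ZNF554 lie below it at −21.3 and −11.9 points.

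Genes for the machinery that KRAB proteins recruit were mostly open. Of 22 listed genes, 21 had a promoter peak in all 4 libraries, against 59.7% of all protein-coding genes. DAXX, a histone chaperone, had none. Of the listed genes, 0 had a rank gain (background 0.906%) or a rank loss (1.89%). Their median mean rank was 77.5, against 78.4 over all protein-coding genes open in all 4 libraries. TRIM28, the co-repressor bound by KRAB, had ranks of 81.7 and 84.6 with PBS and 92.5 and 82.3 with SCF, so the groups overlapped. SETDB1, the methyltransferase, had ranks of 95.3 and 90.9 with PBS and 80.9 and 91.6 with SCF, again with overlap. DNMT1, the maintenance DNA methyltransferase, ranked between 97.1 and 99.7 in all 4 libraries.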

How the data were processed

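ATAC-seq peak lists of 4 sgControl HUDEP-2 libraries (2 PBS, 2 SCF) were used. According to the methods of the study, paired ends were processed with the ENCODE ATAC-seq pipeline; the submitters' processing notes name bcl2fastq, Bowtie2 and SAMtools, with versions not given in the sources used here. Peaks were called per library. The build is hg38 in the methods but hg19 in the series' design text and at the head of every list, so coordinates were read as hg19. All peaks on the 24 chromosomes used ended inside GRCh37. Replicate numbers in the names of peaks differ from those of the labels, which were followed.

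The deposited lists hold a whole-number score, which was not used, a fold enrichment (ratio of summit to local background), and −log10 values for both p-value and q-value. The authors had applied a q-value threshold before deposit (highest q 0.0497). Total reads are unknown. Whole numbers of fragments at the summit were recovered from fold and −log10 p under a Poisson distribution, in 100% of peaks to a relative error of 0.0001, and relative depth from the lowest background. Intervals for counting error were not given, because peak lists hold values above a threshold only.

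Genes, start sites and coding sequences were those of GENCODE (release 44, GRCh37 lift). The finger pattern was to be searched in RefSeq proteins and was searched in translated GENCODE coding sequences instead, available for 243 members. Uniqueness was counted over words of 64 bases in 2 kb around the 5′ end. Libraries were compared by exact two-sided permutation tests (6 relabelings) and, within libraries, by exact sign-flip tests (16 patterns), with Benjamini-Hochberg adjustment over the 10 clusters. The methods of the study call the libraries of a condition biological duplicates, and whether these were separate cultures is not given in the sources used here. Genes with the 5 highest and 5 lowest mean ranks, the highest of each cluster, those with a gain, loss or treatment-specific peak, the 5 widest, and the list genes were named, except that some marker genes are not reported here. Members and lists were chosen with earlier results of these data known. Scripts were tested on simulated data (Python 3.11.15, numpy 2.4.6, pandas 2.3.3, scipy 1.17.1, pysam 0.24.0). Alternatives were other distances, start sites, peak thresholds, rankings, rank gaps and joining distances, each library left out, and replicate pairing.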

Additional observations from a re-analysis of the deposited data

How the results depend on the processing

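Over all alternatives, 191 of 238 recomputed values were labelled as unchanged. These kept their direction, stayed at 0 where they had been 0 or, for counts, stayed within 1.5 times. The distance between the highest and lowest cluster had to stay within 1 SD instead. Values with a replicate block equal the main differences by construction and are among the 191. The other 47 included shares by cluster that left or reached 0, between −3.85 points (cluster 8, −log10 q of at least 5) and 6.25 points (cluster 9, within 500 bp). With the 5′ end as the only start site, the width difference to other chromosome 19 genes was −13.5 bp and the share difference to ZNF genes of other chromosomes −1.22 points. Ranked by recovered fragments, chosen after seeing the data, the rank difference to other chromosome 19 genes was −6.80 points and no member (0) had a gain, as was so when ranked by −log10 p (0). The share difference to other chromosome 19 genes ranged from 12.1 to 21.9 points. Rank gains and losses numbered 3 and 4 with equal numbers of peaks (all genes 1.39% and 1.98%). In that setting 0 members were open only with PBS (all genes 0.397%). Gains and losses numbered 2 and 8 at a −log10 q of at least 5 (all genes 1.1% and 3.77%). They numbered 6 and 13 with a gap of 5 points (3.32% and 6.5%) and 0 and 0 with 20 (0.0665% and 0.191%). Within 500 bp, 1 member was open only with SCF (0.407%, against 0.367% of all genes). Joined within 250 kb, the highest and lowest clusters differed by 78.6 points. Leaving out 1 library gave a share difference, SCF minus PBS, of −2.03 to 0.813 points, with −45 to 0 bp in width and −2.35 to −0.58 points in rank. The rank gains and losses under these settings are given above beside the shares of all genes. The cause was not tested beyond what each construction sets. Replicate numbers did not show pairing (correlation of deviations 0.0444 over 12035 genes, −0.0659 over 201 members). With a replicate block the differences were by construction the same, −0.610 points in share (exact sign-flip p = 1), −22.5 bp in width (exact sign-flip p = 1) and −1.47 points in rank (exact sign-flip p = 0.5, the smallest 2 pairs allow). Gains and losses were not recomputed with the block. Depth limits closed calls: a promoter without a peak had none past the threshold, and the weakest member peaks held 6 to 8 fragments.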
